A study of Mus musculus with 47 samples.

Results

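Described here are 9 genes that encode basic helix-loop-helix (bHLH) transcription factors of neural and muscle lineages, and the histone marks around them in mouse liver. They were chosen by name, as the neural factors Neurog1, Neurog2, Neurog3, Neurod1, Atoh1 and Olig2 and the muscle factors Myod1, Myf5 and Myog, out of 22367 protein-coding genes of the mm9 annotation. A bHLH protein binds DNA as a dimer, usually with a widely expressed partner such as Tcf3, at short sequences called E-boxes. The neural factors direct progenitors towards neurons, sensory cells or oligodendrocytes, and Neurog3 and Neurod1 also act in endocrine cells of the pancreas, whereas Myod1, Myf5 and Myog direct the formation of skeletal muscle. Outside their own lineages such genes are known targets of Polycomb repressive complex 2, whose subunits Ezh1 and Ezh2 trimethylate lysine 27 of histone H3 (H3K27me3).

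The study mapped the repressive mark H3K27me3 and the enhancer-associated marks H3K27ac and H3K4me1 with ChIP-seq in whole liver of mice aged 7 weeks. Control males and females were floxed (Ezh2 f/f), and E1/E2-KO males and females (double knockout, DKO) carried Ezh1-/- with Ezh2 f/f and the Alb-Cre transgene. Because the albumin promoter drives Cre, Ezh2 was deleted in hepatocytes, whereas the other cells of the liver lost Ezh1 and kept Ezh2. Each group and mark had 4 livers, except that the records hold 3 for H3K4me1 of E1/E2-KO females, and the reads of a group were pooled before peaks were called. The data are therefore 12 lists of positions, 1 for each mark and group, without replicates, heights or read counts, so that the depth is unknown and no difference was tested. Absence from a list means that no peak passed the caller, and in whole liver a mark in fewer cells and a weaker mark in all cells cannot be told apart. Values below are given in the order control male, E1/E2-KO male, control female and E1/E2-KO female liver.

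All 9 genes lay wholly inside a single H3K27me3 region in each of the 4 lists. Neither sex lost the mark from any gene span in E1/E2-KO liver at this level of detection, and what differed between lists was how far the regions reached beyond the genes. Over the whole genome the H3K27me3 lists also differed little in extent, covering 766, 750, 728 and 707 Mb. Regions kept in E1/E2-KO lists are thus not particular to these 9 genes. The study states that its sequencing may understate how much of the mark was lost at certain sites. H3K27ac, by contrast, was called near few of the 9 genes and more often in E1/E2-KO than in control lists, as it was over all genes (69.0% against 60.4% in males, 68.4% against 67.0% in females). The E1/E2-KO peaks lay near Myog and Olig2 in both sexes and near Atoh1 in females. Olig2 also had a peak within 10 kb in control females, at another site, and 1 at 10.8 kb from its span in control males. The sequences on which these observations rest are shown first.

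The first is the Myod1 amplicon that the study used as a static site in ChIP-qPCR, from 241 to 190 bp before the transcription start site on the plus strand of chromosome 7. The study chose static sites for unchanged H3K27me3 in these ChIP-seq data, and this one was inside an H3K27me3 region in all 4 lists. Capitals mark the primer sites, read from the NCBIM37 (mm9) genome as are all sequences here.
Myod1 static amplicon, chr7:53631603-53631654: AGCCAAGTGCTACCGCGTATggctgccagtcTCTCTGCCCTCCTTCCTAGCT

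The next sequences are sites where H3K27ac was called in E1/E2-KO and not in control liver. Capitals mark every CANNTG, the general E-box, which reads as CANNTG on both strands. For Myog and Olig2 the middle 300 bases common to the male and female E1/E2-KO peaks are shown, and for Atoh1 the whole female peak, all on the plus strand.
Myog, chr1:136190315-136190614: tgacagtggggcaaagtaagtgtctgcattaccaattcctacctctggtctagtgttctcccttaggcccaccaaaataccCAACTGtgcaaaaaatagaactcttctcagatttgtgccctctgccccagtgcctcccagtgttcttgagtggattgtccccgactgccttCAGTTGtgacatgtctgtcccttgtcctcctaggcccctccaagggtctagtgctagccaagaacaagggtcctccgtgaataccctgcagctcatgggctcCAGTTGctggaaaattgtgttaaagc
Olig2, chr16:91232728-91233027: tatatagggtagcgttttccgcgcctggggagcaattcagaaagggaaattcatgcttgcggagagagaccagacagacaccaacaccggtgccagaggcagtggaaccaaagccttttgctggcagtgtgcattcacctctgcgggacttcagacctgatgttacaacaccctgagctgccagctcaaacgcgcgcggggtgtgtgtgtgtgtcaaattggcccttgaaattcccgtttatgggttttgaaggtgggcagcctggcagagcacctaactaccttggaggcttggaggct
Atoh1, chr6:64678660-64678863: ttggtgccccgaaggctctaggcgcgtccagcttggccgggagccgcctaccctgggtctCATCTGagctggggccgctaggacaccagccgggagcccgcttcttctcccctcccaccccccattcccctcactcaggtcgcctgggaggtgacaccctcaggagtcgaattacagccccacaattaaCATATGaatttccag

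The Myog site held 3 copies of CANNTG, the Atoh1 site 2 and the Olig2 site none. Of 40867 H3K27ac peaks of at least 300 bp in the E1/E2-KO male list, 75.2% had a CANNTG in their middle 300 bases and 19.5% had 3 or more. Among middle windows of 204 bases in the E1/E2-KO female list, 62.4% had at least 1. A match of letters is common in such windows and is given as a description of the sequence only.

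Promoters of Neurog1 and Neurog3 are shown because H3K4me1 was called over or just before their start sites in E1/E2-KO and not in control liver, for Neurog3 in both sexes and for Neurog1 in males. Each is the 250 bases before the start site, 5′ to 3′ along the gene, with CANNTG in capitals.
Neurog1, minus strand, chr13:56353525-56353774: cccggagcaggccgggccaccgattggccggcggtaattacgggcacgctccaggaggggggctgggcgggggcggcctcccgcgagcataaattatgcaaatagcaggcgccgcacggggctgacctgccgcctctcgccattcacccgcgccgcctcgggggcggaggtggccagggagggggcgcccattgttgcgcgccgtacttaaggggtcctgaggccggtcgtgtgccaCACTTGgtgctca
Neurog3, plus strand, chr10:61595588-61595837: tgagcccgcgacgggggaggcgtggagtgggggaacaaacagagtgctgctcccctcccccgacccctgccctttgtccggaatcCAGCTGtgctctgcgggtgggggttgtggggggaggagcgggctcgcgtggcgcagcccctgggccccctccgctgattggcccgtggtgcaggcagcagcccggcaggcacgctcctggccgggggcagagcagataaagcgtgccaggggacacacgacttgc

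Over all genes, 63.6% of such 250-base windows held a CANNTG and 11.8% held the CAGCTG found before Neurog3. Start sites of the 9 genes differed in CpG content. The ratio of observed to expected CpG within 500 bp of the start was 0.756 for Neurog1, 0.852 for Neurog2, 0.743 for Olig2, 0.679 for Neurod1 and 0.657 for Atoh1, above the median of 0.549 over all genes. It was below that median for Neurog3 at 0.506 and for all 3 muscle genes, at 0.480 for Myod1, 0.406 for Myf5 and 0.353 for Myog. Full H3K27me3 coverage was thus found both at CpG-rich neural starts and at CpG-poorer muscle starts.

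**Figure D1:**
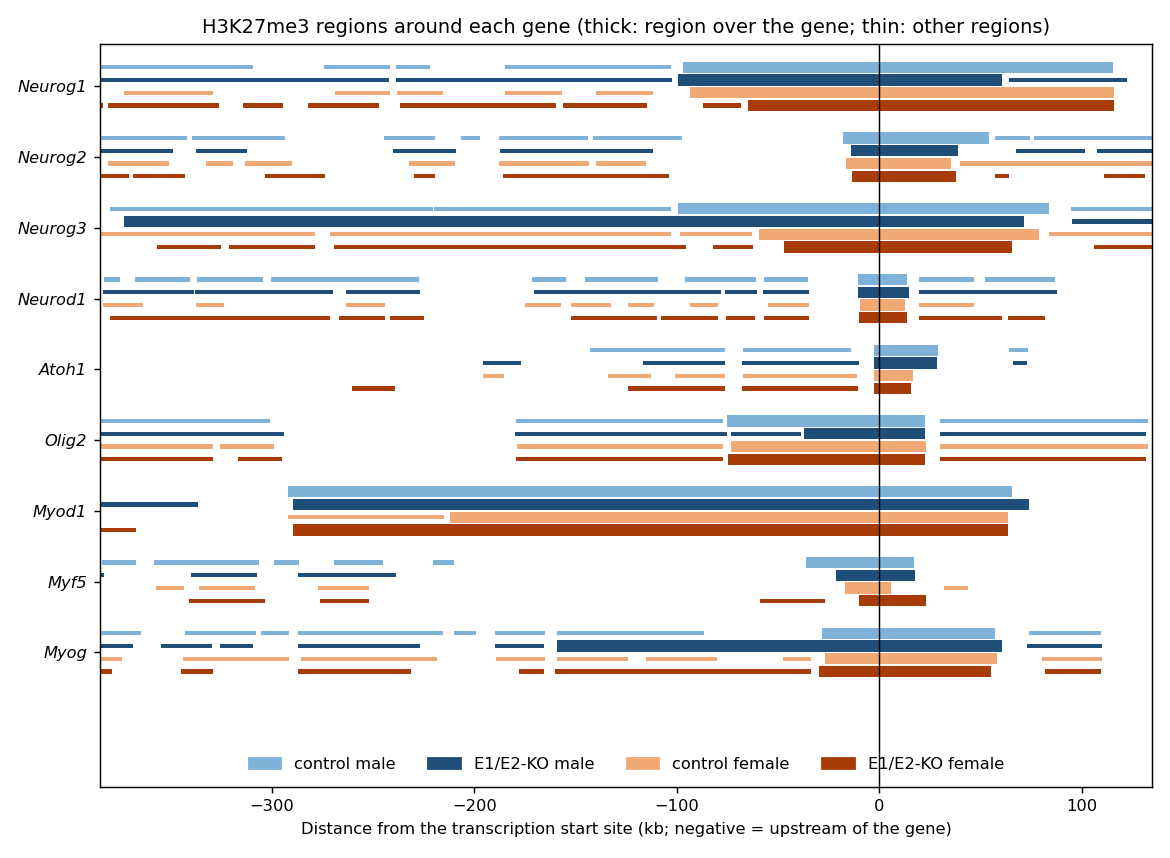
H3K27me3 regions of the 4 lists around the 9 genes, by distance in kb from the transcription start site (vertical line at 0), cut off at the edges of the plot. Thick bars are the region that contains the gene and thin bars are other regions of the same list, and each gene has a thick bar over its start in all 4 lists.

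Most genes of the annotation were not covered in this way. The median gene had a coverage of 0% in every list, and 2751 of 22367 genes (12.3%) were covered over 100% of their span in all 4 lists. Among genes with a span of at most 5 kb, as all 9 are, the share was 18.3%. A coverage of at least 50%, which all 9 genes had, was found for 29.9%, 32.5%, 29.8% and 28.7% of all genes. Coverage was lower in E1/E2-KO than in control liver by 25 percentage points or more for none of the 9 genes, beside 6.07% of all genes in males and 7.59% in females. It was higher by as much for none of the 9 either, beside 9.86% and 6.29%, which their full coverage in control liver did not allow.

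Region width gave a finer view. The median width over the 9 genes was 85.2, 60.0, 84.8 and 84.8 kb, against 53.6, 54.8, 45.2 and 48.8 kb over all genes with a region at their start. E1/E2-KO regions were wider than control regions for 4 genes and narrower for 5 in males, with a median ratio of 0.987 and a range from 0.615 to 2.58. In females 4 were wider and 4 narrower, with a median ratio of 1 and a range from 0.815 to 1.48. The median ratio over all genes with a region at the start in both lists was 1.03 in males and 1 in females. A ratio of 1.5-fold or more in either direction was found for 3 genes in males (Neurog3, Olig2 and Myog) and for none in females, beside 36.5% and 36.6% of all genes with a region at the start in both lists. This contrast between the sexes was not kept after regions separated by less than 5 kb were joined, which gave 3 genes in males (Neurog1, Neurog2 and Myog) and 3 in females (Neurog2, Neurog3 and Myog), beside 35.9% and 35.5%. The median widths depended on joining too. The 60.0 kb of E1/E2-KO males is the Olig2 region, which measured 202 kb once joined. After joining, the median width was higher in E1/E2-KO than in control males and lower in E1/E2-KO than in control females. The median log2 ratio of joined widths stayed near 0, at 0.00285 in males and -0.00977 in females.

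Width also depends on where a list splits neighbouring regions. Gaps of at most 2400 bp, the gap across which SICER was set to join windows, separated from 4.43% to 5.72% of neighbouring regions of a list, so that a region can end where the mark continues. Regions of a list less than 5 kb apart were therefore also merged, a step added after the data were seen. Where merging changed a value, the merged width or the E1/E2-KO over control ratio of merged widths is given below.

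Neurog1, which starts neuron formation in sensory ganglia, lay in a region of 212, 160.0, 209 and 181 kb. In the E1/E2-KO male list the region stopped 60.7 kb downstream of the start instead of about 116 kb, yet the whole stretch of 215 kb spanned by the 4 lists was 98.3% covered there in 2 regions, beside 98.7% in control male liver. With merging, the male ratio moved from 0.753 to 2.72 and the female ratio from 0.864 to 0.969. The 215 kb stretch was thus covered alike in both male lists, but regions further upstream were not. Over the 577.6 kb of the merged E1/E2-KO male region, coverage was 84.0%, 97.9%, 72.2% and 84.7%. That stretch was set by the E1/E2-KO male list, so the high coverage in that list follows from the choice. In females its coverage was higher in E1/E2-KO than in control liver, unlike that of the 215 kb stretch. The chemokine gene Cxcl14, 36.5 kb away, shared the Neurog1 region in all 4 lists, and Tifab, 71.6 kb away on the other side, in all but E1/E2-KO male.

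Neurog2 is a neurogenic factor of the cortex and spinal cord. Its region measured 72, 53.2, 52 and 51.6 kb. Over the 72 kb stretch of the control male region, coverage was 100%, 73.9%, 92.2% and 71.7%, the first value being fixed by the choice of the stretch. Both E1/E2-KO lists lacked a part that both control lists held. That part lay downstream of the gene, towards the kinase gene Alpk1, whose own coverage was 87.8%, 60.6%, 87.9% and 25.3%. With merging, the control regions joined what lay next to them downstream and the E1/E2-KO regions stayed at 53.2 and 51.6 kb, a ratio of 0.341 in males and 0.337 in females. On its other side 4930422G04Rik, 15.1 kb away, was reached by the region in both control lists only, over 3.93% and 2.07% of its span. Over the longer stretch of the merged control male region, coverage was 97.2%, 75.6%, 95.4% and 50.5%. The choice of that stretch favours the control male list. Both E1/E2-KO lists held further regions in it that merging did not join to the Neurog2 region. The merged ratios therefore overstate the difference in coverage, more so in males. Around Neurog2 the direction was the same in both sexes, but over that stretch the difference was larger in females.

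Neurog3, which specifies endocrine cells of the pancreas, had the widest single region, at 183, 445, 138 and 113 kb. The E1/E2-KO male region reached 373 kb upstream of the start, against 99.4 kb in control male liver. However, control male regions covered 99.1% of the stretch of 457 kb spanned by the 4 lists, in 3 regions with at most 3.2 kb uncovered between or beside them, and the E1/E2-KO male region covered 97.4% of it. Merging changed the male ratio from 2.43 to 0.959, whereas the female ratio moved from 0.815 to 0.270. In females, control regions covered 95.7% of the stretch and E1/E2-KO regions 83.5%, with 5 regions in either list. Tspan15, a tetraspanin gene 50.6 kb downstream that shared the region in all 4 lists, was covered over 75.6%, 48.5%, 89.5% and 29.4% of its span. The collagen gene Col13a1, 154 kb away upstream, shared the region in E1/E2-KO males alone, although regions covered at least 93.5% of it in every list.

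Neurod1, a factor of neuron and islet cell differentiation, had one of the most constant regions, at 24, 25.2, 22.4 and 23.6 kb. Both of its edges stayed within 1.6 kb across the 4 lists, and merging left the ratios at 1.05 in males and 1.05 in females. Atoh1, which makes hair cells of the inner ear and granule neurons of the cerebellum, had regions of 31.6, 31.2, 19.2 and 18.4 kb. Its upstream edge lay 2.739 kb before the start in every list. The downstream edge of Atoh1 differed between the sexes, at 28.9 and 28.5 kb in males and 16.5 and 15.7 kb in females, and hardly between control and E1/E2-KO liver.

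Olig2, the factor of motor neuron and oligodendrocyte precursors, lay in a region of 97.6, 60.0, 96.4 and 97.2 kb. The short E1/E2-KO male region was split from a neighbour, and the list covered 96.3% of the common stretch of 98 kb in 2 regions. Once merged, the 4 widths were 202 kb in each list. Olig1, the related gene 41.1 kb away, was itself covered over 100% of its span in all 4 lists. Gm9881, 54.1 kb away on the other side, was covered over 100% as well and shared the Olig2 region in all but the E1/E2-KO male list.

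Myod1, the muscle determination factor, lay in the widest control region, at 358, 364, 276 and 353 kb, and its neighbours Otog, a gene of the inner ear, and Kcnc1, a potassium channel gene, shared it in all 4 lists. The control female region was split from a neighbour, and merging gave 358, 364, 356 and 353 kb, or ratios of 1.02 and 0.993. The window from 50 kb before to 50 kb after Myod1 was 100% covered in every list. The static amplicon lies at Myod1 and was chosen by the study as unchanged in the same ChIP-seq data. Full coverage of this window in every list is therefore a description and not an independent result.

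Myf5, the first muscle determination factor expressed in the embryo, had regions of 53.2, 38.8, 22.4 and 33.2 kb. Its ratio was 0.729 in males and 1.48 in females, and merging moved neither value. Coverage of the window with 50 kb on each side of Myf5 was 51.5%, 37.6%, 33.3% and 54.6%, lower in E1/E2-KO than in control males and higher in E1/E2-KO than in control females. Myf6, a muscle differentiation gene 6.725 kb away, shared the region in all 4 lists.

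Myog, the myogenin gene needed for muscle differentiation, had regions of 85.2, 220.0, 84.8 and 84.8 kb. The E1/E2-KO male region extended 159 kb upstream of the start, against 28.2 kb in control males. Of this 220 kb stretch, which is the E1/E2-KO male region itself, the 4 lists covered 71.6%, 100%, 76.7% and 95.6%. The value of 100% is thus fixed by the choice of the stretch, whereas the female values are not. The longest uncovered piece was 58.4 kb in control males and 32.8 kb in control females, but 5.6 kb in E1/E2-KO females. Merged widths were 85.2, 220.0, 84.8 and 215 kb, a ratio of 2.58 in males and 2.54 in females. The added part covered Adora1, an adenosine receptor gene 54.6 kb upstream, which went from 11.6% to 100% coverage in males and from 29.3% to 100% in females.

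**Figure D2:**
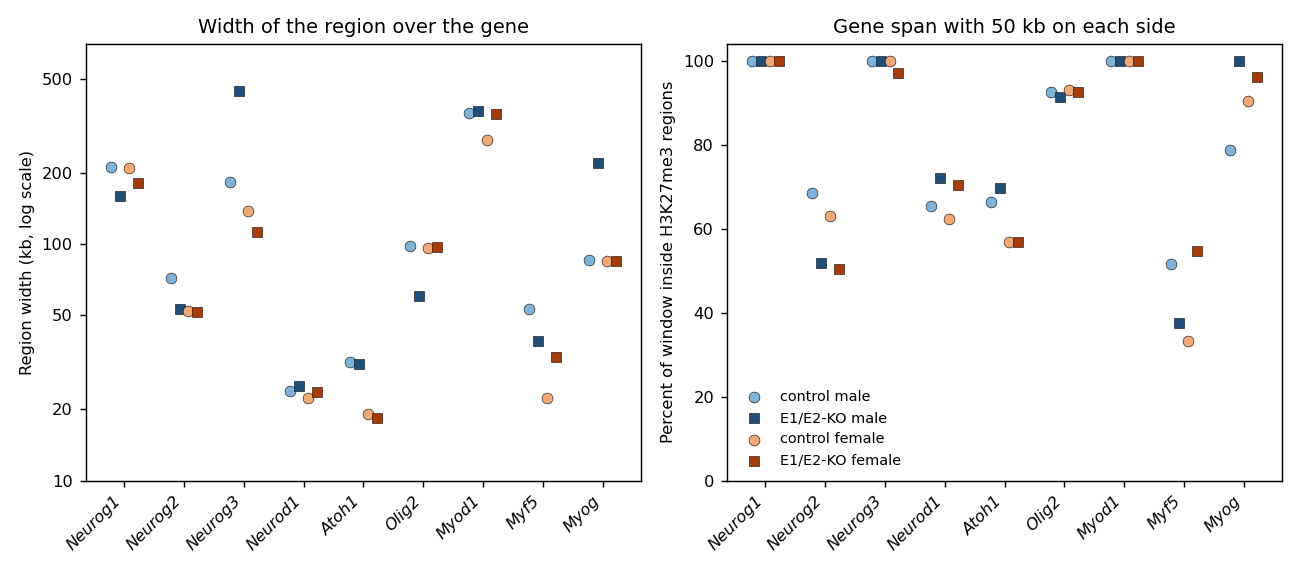
Left, width in kb (log scale) of the H3K27me3 region over each gene as deposited. Right, percent of the gene span with 50 kb on each side that lay inside regions. Circles are control and squares are E1/E2-KO lists, 1 point for each pooled list without an error. Neurog2 points are lower and Myog points higher on the right for E1/E2-KO in both sexes. Myf5 points there are lower for E1/E2-KO in males and higher in females.

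Coverage of the 50 kb flanked window was lower in E1/E2-KO than in control liver by 10 points or more for Neurog2 and Myf5 in males (14.4% of all genes) and for Neurog2 in females (20.4%). It was higher by 10 points or more for Myog in males (23.9%) and for Myf5 in females (13.7%). Such a rise was not possible for Neurog1, Neurog3 and Myod1, at 100% in both control lists. It was not possible either for Olig2, at 92.6% and 93.0% in controls, or for Myog in females. Neurog2 went from 68.4% to 51.9% in males and from 63.0% to 50.3% in females, and Myog from 78.7% to 100% in males and from 90.4% to 96.1% in females. Neurod1 was higher by 6.52 points in males and 8.18 in females, and the remaining 5 genes differed by at most 3.53 points. Of the 18 region edges, 4 stayed within 2 kb across all lists and 7 moved by more than 20 kb. Edges were not counted in this way over all genes, so whether these shifts are unusual was not tested. By likeness of region width over the 4 lists, the closest gene on another chromosome was Fat2 for Neurog1, Meis2 for Neurog2, Col1a1 for Neurog3, Gdnf for Neurod1, Als2cr11 for Atoh1, Gm9817 for Olig2, Cacna1a for Myod1, Ucp1 for Myf5 and Six3 for Myog. The summed absolute log2 difference in width was smallest for Neurod1 at 0.17 and largest for Neurog3 at 0.72.

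H3K27ac, found at active promoters and enhancers, was called within 10 kb of 0, 2, 1 and 3 of the 9 genes. Over all genes the shares were 60.4%, 69.0%, 67.0% and 68.4%. They were lower for genes with a span of at most 5 kb, as all 9 are, at 34.0%, 40.7%, 39.1% and 40.3%. Among the 2751 genes fully inside H3K27me3 regions in all lists the shares were 29.4%, 51.7%, 45.6% and 50.8%. The 9 genes held 0, 3, 1 and 5 such peaks. None lay over a start site, beside 17.6%, 25.9%, 27.6% and 22.9% of all genes with a peak there. Every one lay wholly inside the H3K27me3 region of its own list. As these regions contained the genes and extended beyond them, this was largely set by position. Within each sex the list with more such genes was also the longer one, at 29359, 55930, 49702 and 51253 peaks in the 4 lists.

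**Figure D3:**
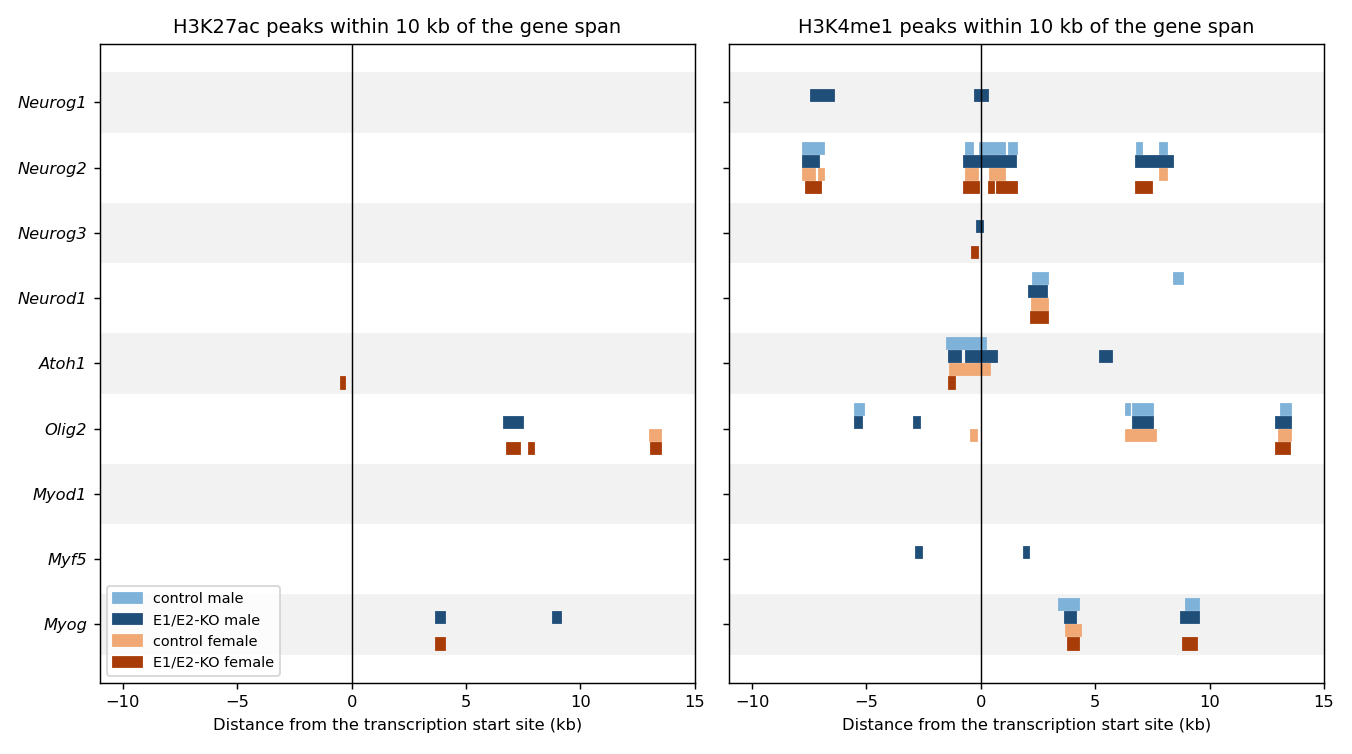
Positions of H3K27ac (left) and H3K4me1 (right) peaks within 10 kb of each gene span, in kb from the transcription start site, with 1 row of bars for each list. H3K27ac bars near Myog and near +7 kb of Olig2 are present for E1/E2-KO males and females and absent for both controls, whereas H3K4me1 bars are already present there in control lists.

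A peak in E1/E2-KO males with none in control males was found for Myog and Olig2, or 2 of 9 genes, beside 8.87% of all genes and 22.8% of fully covered genes, so that the count was near that of fully covered genes. In females it was found for Atoh1 and Myog, beside 3.04% and 9.38%. Myog alone had a peak in both E1/E2-KO lists and in neither control list (1.71% of all genes, 5.71% of fully covered genes). With equal numbers of the widest peaks taken from each list, the call for Myog was lost in males and remained in females, and that for Atoh1 was lost. No gene of the 9 had a peak in control liver and none in E1/E2-KO liver, beside 0.322% of genes in males and 1.70% in females. Counted by site, a measure added after the data were seen, 2 of the 9 genes (Myog and Olig2) had a peak called in both E1/E2-KO lists that overlapped no control peak, beside 13.4% of all genes, 12.6% of fully covered genes and 5.41% of genes with a span of at most 5 kb.

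At Myog, the site lay between genes, from 3674 to 4086 bp after the start in E1/E2-KO males (413 bp wide) and from 3681 to 4102 bp in E1/E2-KO females (422 bp wide). H3K4me1 peaks overlapped it in all 4 lists. In control lists the nearest H3K27ac peak to the Myog start was 47.8 kb away in males and 47.7 kb in females. A further peak of 357 bp in E1/E2-KO males, 8816 bp after the start, lay in an exon of the neighbouring gene Ppfia4. Myog thus had acetylation called next to H3K4me1 that was already present in control liver, while H3K27me3 coverage upstream was higher.

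Olig2 had a site about 7 kb after the start and between genes, from 6671 to 7501 bp in E1/E2-KO males and from 6812 to 7353 bp in E1/E2-KO females. H3K4me1 was called at this site in control male, E1/E2-KO male and control female liver. Another site near 13 kb was called in both female lists and overlapped an E1/E2-KO male peak as well. The Olig2 peak in E1/E2-KO males was 831 bp wide, wider than 79.9% of its list. In control males the nearest H3K27ac peak was 13.9 kb from the start.

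The Atoh1 peak was called in E1/E2-KO females alone, from 480 to 277 bp before the start. It was 204 bp wide, and only 6.23% of that list was narrower. In the other 3 lists the nearest H3K27ac peak was 313 kb from the Atoh1 start. H3K4me1 peaks overlapped the position in control male, E1/E2-KO male and control female liver.

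The other 6 genes had no H3K27ac peak within 10 kb in any list. Nearest peaks to the start of Neurog3 were 22.1, 22.0, 22.1 and 22.1 kb away, nearly the same in each list. Those of Myod1 were 240, 190, 171 and 14.3 kb away, the last in E1/E2-KO females. For Myf5 they were 152, 86.8, 129 and 111 kb away. Neurod1 peaks were 87.7 kb away in control males and from 27.6 to 27.7 kb in the other lists. The nearest acetylation was thus at least 14.3 kb from the start of Myod1 and at least 86.8 kb from that of Myf5.

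H3K4me1, which marks enhancers whether active or not, was called within 10 kb of 5, 8, 5 and 6 of the 9 genes, beside 74.3%, 75.4%, 71.4% and 71.0% of all genes. The shares were 46.1%, 47.3%, 42.8% and 42.3% among genes of at most 5 kb, below that of the 9 genes in every list, and 70.5%, 79.3%, 65.7% and 69.6% among fully covered genes. The peaks numbered 16, 18, 11 and 11, and all lay inside H3K27me3 regions, again largely set by the reach of those regions. A peak covered the start site of 2, 4, 1 and 0 of the 9 genes, beside 8.74%, 10.8%, 6.73% and 5.97% of all genes and 19.6%, 26.7%, 15.8% and 15.1% of fully covered genes. H3K4me1 was more frequent than H3K27ac near the 9 genes in every list, as it was near fully covered genes and near all genes.

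**Figure D4:**
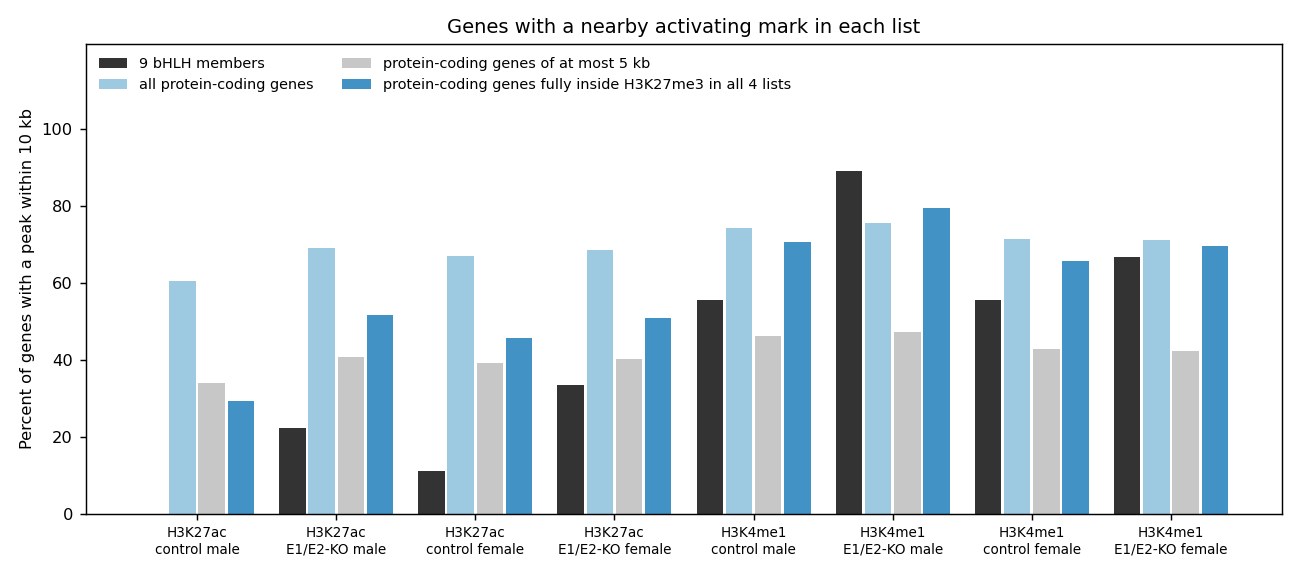
Percent of genes with an H3K27ac or H3K4me1 peak within 10 kb in each list, for the 9 bHLH genes, for all protein-coding genes, for those with a span of at most 5 kb and for those fully inside H3K27me3 regions in all 4 lists. Bars for the 9 genes are below the other bars for H3K27ac in every list, and for H3K4me1 they are above those of short genes in every list.

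A gained H3K4me1 peak, present in E1/E2-KO and absent in control liver, was found in males for Myf5, Neurog1 and Neurog3 (3.09% of all genes, 10.2% of fully covered genes). In females it was found for Neurog3 (3.44% and 8.47%). With equal numbers of the widest peaks, or the widest 50%, the male call remained for Neurog1 alone, and the female call was lost with the widest 50%. None of the 9 genes had lost all H3K4me1 peaks (2.03% of genes in males, 3.83% in females). Neurog3 was the gene of the 9 with a site called in both E1/E2-KO lists and in neither control list, beside 11.8% of all genes. In the opposite direction Olig2 had a control male peak of 194 bp, from 6331 to 6524 bp after the start, that overlapped a control female peak and no E1/E2-KO peak (15.6% of all genes), although that control female peak, up to 7676 bp, also overlapped an E1/E2-KO male peak.

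At Neurog3, whose promoter is printed above, the male peak ran from 168 bp before to 86 bp after the start and the female peak from 374 to 105 bp before it, inside an intron of 2010107G23Rik, a gene that overlaps the start. These peaks were 255 and 270 bp wide, and at most 19.4% of either list was narrower. At Neurog1 the E1/E2-KO male peak was broader, 568 bp over the start, with another of 1022 bp about 7 kb upstream. In the other 3 lists the nearest H3K4me1 peak to the Neurog1 start was 43.9, 43.7 and 43.2 kb away. The Myf5 peaks of E1/E2-KO males were 232 bp in the gene body and 263 bp upstream, and the nearest in the other lists lay 111, 111 and 102 kb away.

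Neurog2 had the most H3K4me1 by summed peak width in every list, with 6, 3, 5 and 5 peaks and a sum of 3176, 4605, 2251 and 3101 bp. In E1/E2-KO males a single peak of 2271 bp spanned the start, where the other lists had shorter pieces. Neurod1 kept a peak in its gene body in all 4 lists, 652, 794, 707 and 734 bp wide, at a position that also lies in the annotated span of Cerkl. Atoh1 had a peak over its start in all lists but E1/E2-KO female, with a summed width of 1677, 2388, 1745 and 272 bp. Olig2 had 4, 4, 3 and 1 peaks and Myog 2, 2, 1 and 2. Myod1 had none within 10 kb in any list, and its nearest peaks were 19943, 14129, 13974 and 19542 bp from the start. The 3 muscle genes thus differed among themselves, with Myog marked in every list, Myf5 in 1 and Myod1 in none.

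Relatives, partners and targets of the 9 factors were taken from fixed lists. Of 15 other neural bHLH genes 13 were covered over at least 50% of their span in all 4 lists, as were 9 of 11 other muscle and mesoderm bHLH genes. Targets were alike, with 13 of 16 neural and endocrine genes and 15 of 16 muscle genes, beside 20.2% of all genes. Of 10 partners and inhibitors, which include the ubiquitous partner Tcf3 and the inhibitor Id2, 3 were covered (Id4, Hes5 and Hey1), and all 10 had an H3K27ac peak within 10 kb in every list. H3K27ac in E1/E2-KO and not in control liver was found in males near 5 neural relatives, 3 muscle and mesoderm relatives, 2 neural and endocrine targets and 4 muscle targets, beside the 8.87% of all genes and 22.8% of fully covered genes given above. In females it was found near 3, 3, 1 and 3, beside 3.04% and 9.38%.

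Atoh8, a relative of Atoh1 known to be expressed in hepatocytes, was the gene of these lists whose coverage differed by 25 points or more in the same direction in both sexes. H3K27me3 covered 0%, 100%, 2.14% and 100% of Atoh8 in the 4 lists. It kept H3K27ac, with 5, 8, 8 and 10 peaks within 10 kb. Atoh8 thus lay inside a called region in both E1/E2-KO lists and almost wholly outside one in both control lists, with acetylation called nearby in all 4.

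Markers of liver cell types checked the label of the tissue. All 6 hepatocyte markers had H3K27ac within 10 kb in every list, and none was covered over 50% in control lists, whereas 3 of the 6 (Apoa1, Hnf4a and Tat) were in each E1/E2-KO list. The endothelial genes Stab2 and Pecam1, covered over 64.2% to 100% in controls, were at 0% in both E1/E2-KO lists, whereas Kdr stayed at 100%. Coverage of at least 50% was found in every list for 1 of 3 Kupffer cell, 2 of 2 stellate cell, 3 of 3 cholangiocyte and 1 of 1 leukocyte markers. Among these the leukocyte marker Ptprc was covered over 99.3%, 56.4%, 73.1% and 84.8% and the cholangiocyte marker Epcam over 100%, 100%, 70.6% and 100%, so that neither moved alike in both sexes. Skeletal muscle markers Ckm and Acta1 were covered over 100% in every list without H3K27ac within 10 kb, and the neuron marker Rbfox3 over at least 98.3%, with an H3K27ac peak within 10 kb of its long span in every list. The shift of hepatocyte and endothelial markers moves with genotype in both sexes as the Myog and Neurog2 flanks do, and its part in these results was not tested.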

How the data were processed

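H3K27me3, H3K27ac and H3K4me1 ChIP-seq was carried out on 47 liver samples. The authors pooled the paired-end reads (50 nt) of those livers in a group that passed their quality checks, mapped them with Bowtie 2 (2.3.2) and called H3K27me3 regions with SICER (1.1, window 400 bp, gap 2400 bp) and the other marks with MACS2 (2.1.1). The 12 deposited lists hold mm9 coordinates without scores, p-values or counts, so that the precision at the unknown depth cannot be given and no replicate could be left out.

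From the deposited lists, coverage of a gene span, the width of the region over it and peaks within 10 kb of it (overlap of at least 1 bp) were computed for the 9 genes and all 22367 protein-coding genes of GENCODE M1 on NCBIM37. A base was added to SICER ends, which lie 1 base before the end of a window. Changes were counted from 25 percentage points for spans, 10 points for windows with 50 kb on each side, and 1.5-fold for widths. No test was made with 1 list per group.

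All 9 genes are named, along with nearest neighbours that shared a region with them in any list, the gene of most similar region width over the 4 lists (smallest sum of absolute log2 differences) and genes of the other lists that changed by 25 points or more in both sexes. Olig1, Tcf3, Id2, Id4, Hes5, Hey1 and single markers were named as examples after their values were seen. The 9 genes and the gene lists were chosen with earlier results of these data known. Primer sequences came from the study's primer table. Scripts used Python 3.11.15, NumPy 2.4.6 and matplotlib 3.10.9 and were tested on simulated data.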

Additional observations from a re-analysis of the deposited data

Results flagged for a closer look

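The width of the H3K27me3 region over Neurog3 and over Myf5 changed in opposite directions in the 2 sexes, by at least 1.2-fold each. For Neurog3 the E1/E2-KO over control ratio was 2.43 in males and 0.815 in females. With regions of a list less than 5 kb apart merged, the Neurog3 ratios were 0.959 and 0.270, below 1 in both sexes. For Myf5 the ratio was 0.729 in males and 1.48 in females, as deposited and after merging. These differences between the sexes were not tested, since each group has 1 list.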

How the results depend on the processing

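Of 92 values of the counts and medians recomputed under other settings, 69 stayed within 1.5 times of the reported value and 23 did not. Of 32 shares of all genes recomputed for short genes or autosomes, 27 left the 95% Wilson interval and 8 moved by over 1.5 times, all 8 being shares with an H3K27ac or H3K4me1 peak among genes of at most 5 kb. The count of genes covered by at least 50% stayed at 9 in each list under the settings tried, except with the widest 50% of regions, which gave 8, 7, 6 and 7 genes, 1 gene with lower coverage in E1/E2-KO males and 1 with higher coverage in E1/E2-KO females. For H3K27ac, counting peaks within the span only gave 0 genes in E1/E2-KO males, control females and E1/E2-KO females, and counting within 50 kb gave 4, 6, 5 and 6 genes in the 4 lists. The widest 50% of peaks gave 1 gene in E1/E2-KO males and 0 in control females, and equal numbers of the widest peaks gave 1 in E1/E2-KO males. For H3K4me1, the span only gave 3 genes in control males, 3 in control females and 2 in E1/E2-KO females, and 50 kb gave 8 in each control list.

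Alternatives added after the data were seen bear on gained peaks. With equal numbers of the widest peaks, H3K27ac in E1/E2-KO and not in control liver was found for 1 gene in males (Olig2) and 1 in females (Myog), and with the widest 50% of peaks for 1 in males (Olig2) and 2 in females (Myog and Olig2), so that the Atoh1 call was lost under both. Gained H3K4me1 was found for 1 gene in males under either setting (Neurog1) and for 0 in females with the widest 50%. Merging regions within 5 kb took the width ratio across 1 for Neurog3 in males (2.43 to 0.959), Neurog1 in males (0.753 to 2.72) and Myod1 in females (1.28 to 0.993), and took that of Olig2 in males from 0.615 to 1.00. Beside Neurog3 and Olig2 in males, merging moved 5 of the 18 ratios, those of Neurog1 in males, Neurog2 in both sexes, Neurog3 in females and Myog in females, by more than 1.5 times. The cause of the other differences was not tested. No paired analysis was possible because the livers of a group were pooled before peaks were called, and for the same reason no liver could be left out. Positions without a peak had no call at an unknown depth, which is not absence of the mark.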
